A study of Mus musculus with 4 samples.

Results

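The genes described here are 10 genes of LIM domain proteins found in muscle: Csrp1, Csrp2, Csrp3, Fhl1, Fhl2, Fhl3, Ablim1, Ablim3, Limch1 and Pdlim3. They were taken by gene symbol from a table of 24445 genes measured by RNA sequencing of cultured mouse primary myoblasts, the dividing precursor cells of skeletal muscle. The set was chosen on the values of the same table, in which Csrp3 and Limch1 were among the genes with the largest drops, so the differences between the groups below are a description and carry no test. The study compared WT C57BL/6 mice with C57BL/6 mice that lack Tet2, a dioxygenase acting on methylated cytosines of DNA, and had 2 libraries in each group. The Tet2 KO removes exon 3 and is constitutive, so that it is not limited to muscle cells. Per the study's methods, male animals of 8 to 10 weeks served unless stated otherwise. Hindlimb muscle was the source of the satellite cells, the resident stem cells, which were sorted as cells without CD45, CD11b, CD31 and Sca1 and with CD34 and integrin alpha 7. They were grown on collagen in proliferation medium for at least 3 days, by which time they had become MyoD+ myoblasts, and they were not switched to differentiation medium. Nothing in the labels says whether the 2 libraries of a group came from separate animals.

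The LIM domain is a small fold held together by zinc that proteins use to dock onto other proteins. In striated muscle many LIM proteins sit at the Z-disc, where actin filaments of neighbouring sarcomeres are anchored, or where actin meets the cell membrane, and several of them also move to the nucleus. Csrp3, also named muscle LIM protein, and Pdlim3 are best known from the Z-disc of differentiated muscle, and Csrp3 is known as a promoter of myogenic differentiation.

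Each value below is an FPKM, fragments normalised for transcript length in kilobases and for each 1000000 fragments mapped, of which the table held 1 per gene and group. From its column names, each value was read as belonging to a whole group. Since the methods speak of comparing pairs of KO and WT samples, a value may instead stand for a single library. There is therefore no SD and no replicate check beside any value, the depth of the libraries is unknown, and differences are described by size alone. Ratios are given as log2((Tet2 KO FPKM + 1) / (WT FPKM + 1)), and negative ratios mean a lower value in Tet2 KO. A fold quoted for a single gene is the plain quotient of its FPKM values, without the added 1. A gene was counted as lower or higher when it was at or past 2-fold on that scale, among the 11692 genes whose mean FPKM over both groups reached 1, a level that all 10 LIM genes passed.

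The stretches just before the annotated starts of these genes are shown as a description. Whether the lower values have a shared cause was not tested. RefSeq promoter windows in build GRCm38.p6 were found for 8 of the 10 genes, 18 windows in all because of alternative starts. The window closest to the beginning of the gene in the expression table was taken, and its 250 bases before the start are printed 5′ to 3′ for 4 genes that were lower in Tet2 KO and for 2 paralogues that were not. For Fhl1 even the closest window belongs to an internal start. In mm9 it spans 54032610 to 54032859, while the gene begins at 53984938 in the expression table. Capitals mark E-boxes, CANNTG, the short element that MyoD and its relatives bind, and CArG boxes, the element of serum response factor. The Csrp3 window lies at chr7:48848052-48848301 on the minus strand and the Csrp1 window at chr1:135728917-135729166 on the plus strand. The Fhl1 window lies at chrX:56779433-56779682 on the plus strand and the Fhl2 window at chr1:43196762-43197011 on the minus strand. Those of Limch1 and Pdlim3 lie at chr5:66745639-66745888 and at chr8:45885237-45885486, both on the plus strand.
Csrp3: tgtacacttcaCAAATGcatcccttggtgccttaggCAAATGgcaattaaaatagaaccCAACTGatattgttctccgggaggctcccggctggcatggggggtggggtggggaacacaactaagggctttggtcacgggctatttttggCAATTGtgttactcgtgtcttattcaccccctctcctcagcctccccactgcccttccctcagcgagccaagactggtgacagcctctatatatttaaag
Csrp1: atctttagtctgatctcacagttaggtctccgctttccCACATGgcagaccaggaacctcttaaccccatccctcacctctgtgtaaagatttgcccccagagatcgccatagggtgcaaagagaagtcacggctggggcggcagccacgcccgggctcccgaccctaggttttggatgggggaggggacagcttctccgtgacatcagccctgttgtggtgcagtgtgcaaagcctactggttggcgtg
Fhl1: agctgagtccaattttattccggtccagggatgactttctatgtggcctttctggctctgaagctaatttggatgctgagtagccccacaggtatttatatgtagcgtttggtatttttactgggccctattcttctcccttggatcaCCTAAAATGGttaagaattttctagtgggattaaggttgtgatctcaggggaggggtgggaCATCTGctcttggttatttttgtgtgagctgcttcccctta
Fhl2: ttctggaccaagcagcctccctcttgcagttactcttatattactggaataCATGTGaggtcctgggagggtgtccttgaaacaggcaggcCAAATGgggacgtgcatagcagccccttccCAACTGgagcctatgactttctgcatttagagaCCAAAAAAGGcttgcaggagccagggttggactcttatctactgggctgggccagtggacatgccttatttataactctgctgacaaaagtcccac
Limch1: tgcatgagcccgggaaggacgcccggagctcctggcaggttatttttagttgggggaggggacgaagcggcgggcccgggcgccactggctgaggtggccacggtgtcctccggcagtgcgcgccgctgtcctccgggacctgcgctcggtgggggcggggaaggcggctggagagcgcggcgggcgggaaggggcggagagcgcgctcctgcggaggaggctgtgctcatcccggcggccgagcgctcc
Pdlim3: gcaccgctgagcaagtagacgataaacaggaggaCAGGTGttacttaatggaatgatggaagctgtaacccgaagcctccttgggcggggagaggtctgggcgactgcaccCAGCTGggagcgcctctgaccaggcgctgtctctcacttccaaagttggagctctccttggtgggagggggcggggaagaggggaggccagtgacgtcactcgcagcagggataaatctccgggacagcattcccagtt

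Both windows of Csrp3 held 4 E-boxes, a number that 3.84% of all 32851 windows of this length reached or passed. In the window printed for Csrp3 they began 239, 214, 191 and 100 bases before the start. The Csrp1 window held a single E-box, at 212 bases. In the other printed pair the order was the opposite, with 1 E-box in the window of Fhl1 and 3 in that of Fhl2. At least 1 E-box was found in 66.2% of all windows and in 14 of the 18 windows of these genes. The windows of Fhl1 and Fhl2 were alike in another element. The printed Fhl1 window had a CArG box 102 bases before the start, and both windows of Fhl2 had one, at 96 and at 31 bases. A CArG box stood in 1.47% of all windows, so it was shared by a gene with a low ratio, Fhl1, and a gene with nearly equal levels, Fhl2. The E-box CAGCTG, a form favoured by MyoD, stood in 2 of the 18 windows, that of Pdlim3 at 139 bases and 1 of the 5 windows of Ablim1 at 134 bases, and in 13% of all windows. Each is also counted as an E-box. No MEF2 site was found in any of the 18 windows, and 0.508% of all windows held one. Each of these patterns reads the same on both strands. CG dinucleotides, the sites at which DNA is methylated, ranged from 1 in the printed Fhl2 window to 30 in that of Limch1, with a median of 6 over all windows. The printed Limch1 window held more CG than 94.1% of all windows and no E-box, while the other windows of Limch1 held 2 and 7 CG and 1 and 2 E-boxes. The printed windows of Csrp3 and Fhl1 held 5 and 2 CG. A match to such letters is no evidence of binding, and methylation data were not analysed here.

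**Figure D1:**
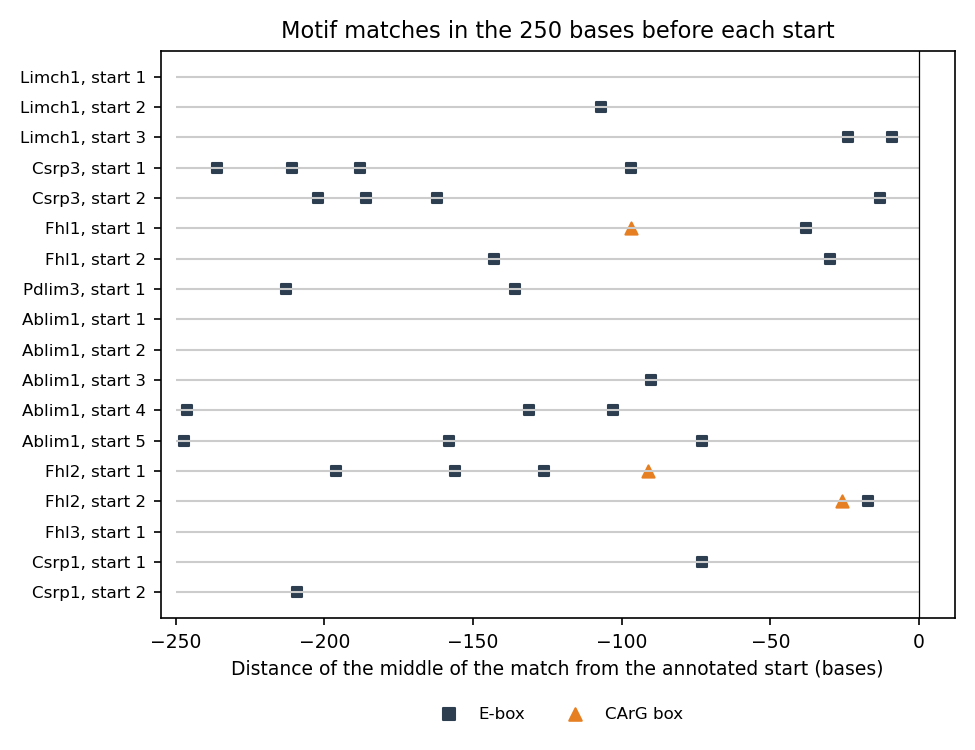
Motif matches in the 250 bases before each annotated start. The x axis gives the distance of the middle of the match from the start in bases. There is 1 line per window of the 8 genes whose windows were used, ordered by ratio from the lowest at the top. Squares are E-boxes and triangles are CArG boxes; the 2 Csrp3 lines carry 4 squares each, and the triangles sit on 1 Fhl1 line and both Fhl2 lines.

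The set held both the lowest ratios of the LIM genes examined here and several near 0. In Tet2 KO, 5 of the 10 genes (Limch1, Csrp3, Fhl1, Pdlim3 and Ablim3) were lower by at least 2-fold and 0 were higher. Over all genes, 1.21% were lower and 2.08% higher by the same measure, and nothing is read from that contrast since the genes were selected on it. The median ratio of the 10 genes was -0.82, and that of all genes was -0.0044. The 5 lower genes summed to 205 FPKM in WT and 68.0 in Tet2 KO, while the other 5 summed to 162 in WT and 167 in Tet2 KO. These sums follow from how the genes were split and are given for their size only. The levels of the 5 lower genes in WT ranged from 5.93 to 78.9 FPKM. Next to the 2-fold limit stood Ablim3 on the inside, with a ratio of -1.11, and Ablim1 on the outside, with -0.52.

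**Figure D2:**
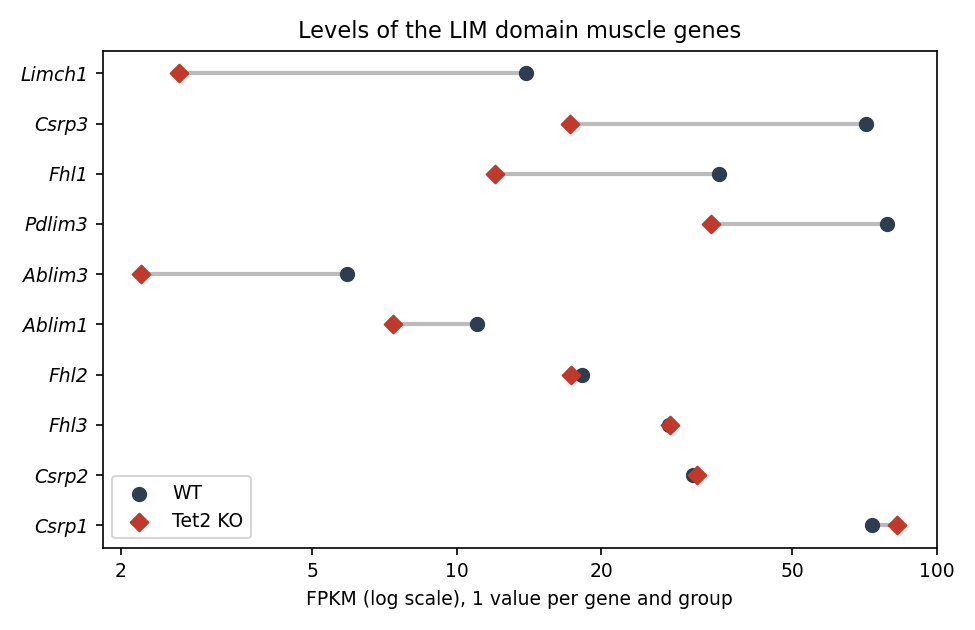
Level of each of the 10 genes in WT (circles) and Tet2 KO (diamonds) on a log axis in FPKM, 1 value per gene and group with no error available, ordered by ratio. The 5 genes at the top have the diamond well to the left of the circle, from 13.9 to 2.65 FPKM for Limch1, and the 4 genes at the bottom have nearly coinciding symbols.

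The Csrp genes encode small proteins with a pair of LIM domains, which bind alpha-actinin and, in the nucleus, transcription factors. Csrp3 had 71.1 FPKM in WT and 17.3 FPKM in Tet2 KO, a 4.12-fold lower level and a ratio of -1.98. Only 7 of the 11692 genes had a lower ratio. Csrp1, which is expressed broadly and strongly in smooth muscle, had 73.4 FPKM in WT and 82.7 FPKM in Tet2 KO, a ratio of 0.17. Csrp2, known from vascular smooth muscle, had 31.1 FPKM in WT and 31.7 FPKM in Tet2 KO, a ratio of 0.03. In WT, Csrp3 thus stood level with Csrp1 and at 2.28 times Csrp2, and in Tet2 KO it stood below both. Its share of the summed FPKM of the family was 40.5% in WT and 13.1% in Tet2 KO. Over the same groups the share of Csrp1 went from 41.8% to 62.8%, with little difference in its own level.

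In mm9, Csrp3 is on the minus strand of chromosome 7 (56085768 to 56103421), with 6 exons in the transcript of longest coding sequence (GENCODE vM1). Csrp1 lies on chromosome 1, from 137625774 to 137648806, and Csrp2 on chromosome 10, from 110357232 to 110376570, both on the plus strand and both also with 6 exons. Their coding sequences measure 582 bases in Csrp1 and in Csrp2 and 585 bases in Csrp3, and are identical at 69.3% to 73.7% of aligned bases in pairs. No stretch of the transcripts of the 3 genes was found elsewhere in the genome at 95% identity or more.

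The Fhl genes encode proteins made almost wholly of LIM domains. Fhl1, the form most typical of skeletal muscle and the gene affected in reducing body myopathy, had 35.2 FPKM in WT and 12.05 FPKM in Tet2 KO. This is a 2.93-fold lower level and a ratio of -1.47, with 34 genes below it. Fhl2, a coactivator best known from heart, had 18.2 FPKM in WT and 17.3 FPKM in Tet2 KO, a ratio of -0.07. Fhl3, which binds actin and is found in skeletal muscle, had 27.7 FPKM in WT and 27.8 FPKM in Tet2 KO, a ratio of 0.0039. Fhl1 was the highest of the 3 in WT and the lowest in Tet2 KO, while Fhl3 stood above Fhl2 in both groups. Its share of the summed FPKM was 43.4% in WT and 21.1% in Tet2 KO, and that of Fhl3 was 34.1% and 48.6%.

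Fhl1 is on the plus strand of chromosome X (53984938 to 54046523) and is annotated with 11 transcripts, which the gene-level value does not separate. Fhl2 is on the minus strand of chromosome 1 (43179916 to 43253606) and Fhl3 on the plus strand of chromosome 4 (124377943 to 124385855). The coding sequences of Fhl1, Fhl2 and Fhl3 measure 972, 840 and 870 bases and are identical at 61.0% to 67.4% of aligned bases in pairs. The Fhl3 value is less certain than the others, because a stretch of chromosome 6, from 17659991 to 17661206, matches 68.5% of its transcript at 96.7% to 97.8% identity, so reads could be split between the 2 places. Of the Fhl1 transcript, 4.15% matched a short repeat, with no match longer than 106 bases.

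**Figure D3:**
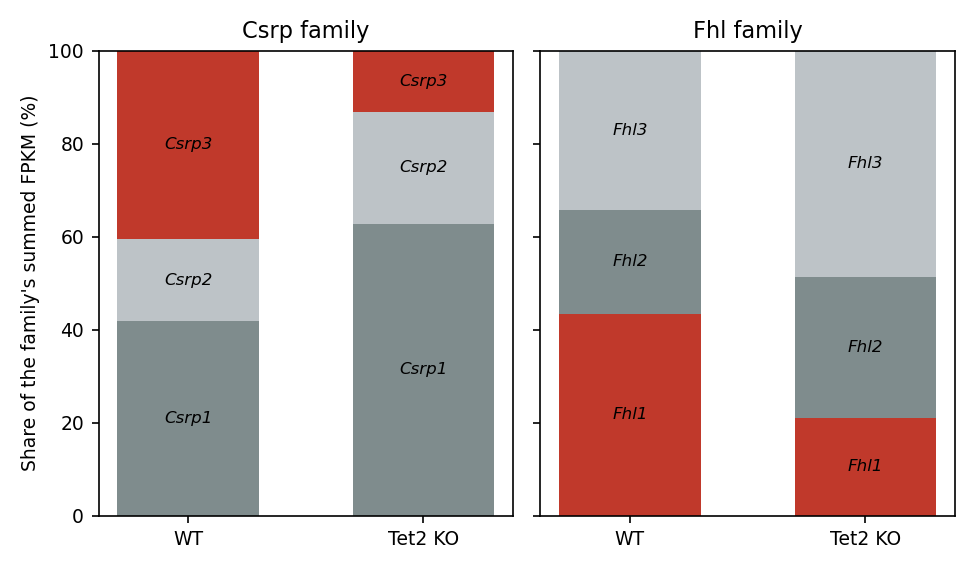
Share of each paralogue in the summed FPKM of its family, in percent, in WT and Tet2 KO, for the Csrp family (left) and the Fhl family (right); each bar is 1 value per group with no error available. The red block is 40.5% in WT and 13.1% in Tet2 KO for Csrp3, and 43.4% and 21.1% for Fhl1.

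Ablim1, Ablim3 and Limch1 link LIM domains to actin and myosin filaments. Limch1, which carries a calponin homology domain and activates non-muscle myosin, had 13.9 FPKM in WT and 2.65 FPKM in Tet2 KO. This was the largest fold of the set, 5.26-fold lower, with a ratio of -2.03 and 6 genes below it. Ablim3, an actin-binding protein, had 5.93 FPKM in WT and 2.199 FPKM in Tet2 KO, 2.70-fold lower and a ratio of -1.11. Ablim1, the broadly expressed actin-binding paralogue, had 11.0 FPKM in WT and 7.38 FPKM in Tet2 KO, 1.497-fold lower and a ratio of -0.52. These 3 genes had the lowest levels of the set in both groups. At low levels the added 1 FPKM shrinks the ratio, and without it that of Limch1 was -2.39.

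Limch1 is on the plus strand of chromosome 5 (67137079 to 67448398). Ablim3 and Ablim1 are on the minus strands of chromosome 18 (61959047 to 62071506) and chromosome 19 (57107223 to 57290522). Of these, Ablim1 has 24 annotated transcripts and 5 promoter windows, Limch1 has 15 transcripts and 3 windows, and Ablim3 has 2 transcripts. A difference in the use of isoforms cannot be seen in a gene-level value. The library kit does not record the strand of a transcript. Limch1 overlaps 4 other annotated genes and Fhl1 overlaps 1, but no annotated exon of another gene overlaps an exon of any of the 10.

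Pdlim3, also named actinin-associated LIM protein, joins a PDZ domain to a LIM domain and binds alpha-actinin at the Z-disc. It was the highest of the set in WT, at 78.9 FPKM, and had 33.9 FPKM in Tet2 KO. This is 2.33-fold lower, a ratio of -1.20 with 99 genes below it. In absolute terms the level dropped by 45.1 FPKM, next in size to Csrp3, which dropped by 53.8 FPKM. Pdlim3 lies on chromosome 8, from 46970839 to 47004900 on the plus strand, and has a single annotated transcript of 1578 bases.

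**Figure D4:**
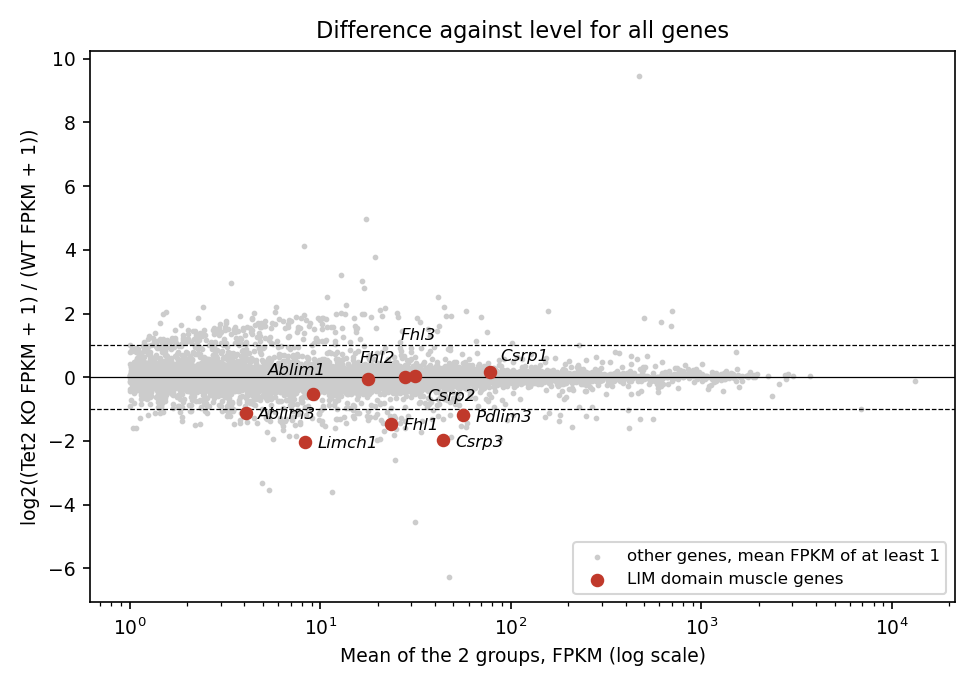
Ratio of each gene, log2((Tet2 KO FPKM + 1) / (WT FPKM + 1)), against its mean FPKM in the 2 groups on a log axis, for the 11692 genes that reached a mean of 1 (grey) and the 10 LIM genes (red, named); dashed lines mark 2-fold. Limch1 at -2.03 and Csrp3 at -1.98 lie at the lower edge of the main cloud at different levels, and Fhl2, Fhl3, Csrp2 and Csrp1 lie within it near 0.

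In order of level, the set in WT ran Pdlim3, Csrp1, Csrp3, Fhl1, Csrp2, Fhl3, Fhl2, Limch1, Ablim1 and Ablim3. In Tet2 KO it ran Csrp1, Pdlim3, Csrp2, Fhl3, Fhl2, Csrp3, Fhl1, Ablim1, Limch1 and Ablim3. With 1 value per group, no neighbours in either order can be said to differ beyond their spread. Closest together were Fhl2 and Csrp3 in Tet2 KO, both at 17.3 FPKM. The genes nearest to Csrp3 in both levels, by distance in log2(FPKM + 1) over the 2 groups, were Myh1, Myh8 and Mb. Myh1 and Myh8 encode adult fast and perinatal myosin heavy chains, with ratios of -1.86 and -1.73, and Mb encodes myoglobin, with a ratio of -1.30. Nearest to Limch1 were Myoz2, a Z-disc protein (ratio -1.85), Fn3k, a kinase that repairs glycated proteins (-1.84), and Lmod2, which nucleates actin filaments in muscle (-1.50). Genes picked for closeness in both levels have similar ratios by construction, so the low ratios of these neighbours are no separate result.

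Beyond these genes, a chosen list of 51 other LIM domain genes, which is not the whole family, was looked up in the table. All were present, and 37 of them had a mean FPKM of at least 1. Of the 37, 3 were lower and 2 higher by at least 2-fold, beside 1.21% and 2.08% of all genes, and their median ratio was -0.01. The 3 lower genes were Nrap, Ldb3 and Lmo7. Nrap, an actin anchor of forming myofibrils, had 33.5 FPKM in WT and 9.81 FPKM in Tet2 KO, a ratio of -1.67. Ldb3, a Z-disc protein with PDZ and LIM domains like Pdlim3, had 17.97 and 6.61 FPKM, a ratio of -1.32. Lmo7, which is found at cell junctions and in the nucleus, had 22.2 and 9.72 FPKM, a ratio of -1.11. The 2 higher genes, Lmo2, a partner of transcription factors in blood cells, and Lpxn, a leukocyte relative of paxillin, were low throughout. Lmo2 had 2.34 FPKM in WT and 5.80 FPKM in Tet2 KO (ratio 1.03), and Lpxn had 1.03 and 3.60 FPKM (1.18). Crip2, the gene of this list with the highest level in WT, had 183 FPKM in WT and 177 FPKM in Tet2 KO, a ratio of -0.05.

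**Figure D5:**
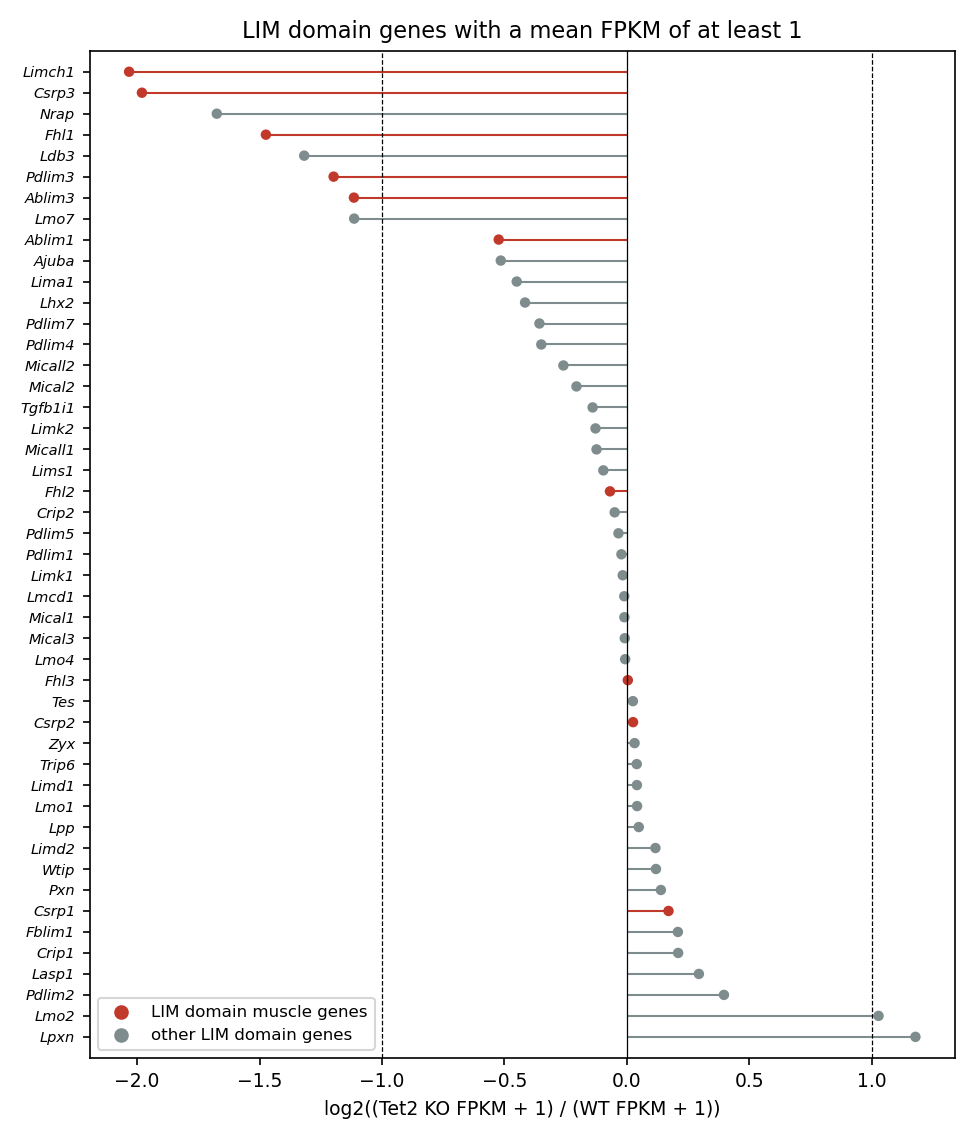
Ratio of each listed LIM domain gene with a mean FPKM of at least 1, log2((Tet2 KO FPKM + 1) / (WT FPKM + 1)), with the 10 genes described here in red and 37 others in grey. Dashed lines mark 2-fold. The 8 genes past 2-fold on the left run from Limch1 at -2.03 to Lmo7 at -1.11, the 2 on the right are Lmo2 at 1.03 and Lpxn at 1.18, and most others lie close to 0.

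Some of the proteins that LIM proteins bind or work with had lower values too. Of 22 such genes, 19 had a mean FPKM of at least 1, of which 3 were lower by at least 2-fold and 0 higher, beside 1.21% and 2.08% of all genes, with a median ratio of -0.03. The lower genes were Tcap, which encodes telethonin, the Z-disc partner of Csrp3 and titin, and the alpha-actinin genes of muscle, Actn2 and Actn3. Tcap had 18.5 FPKM in WT and 5.48 FPKM in Tet2 KO, and its ratio and that of Actn2 were both -1.59. Actn2 had 42.3 and 13.4 FPKM, and Actn3 had 82.2 and 35.4 FPKM with a ratio of -1.19. The alpha-actinins of non-muscle cells had ratios of 0.02 (Actn1) and 0.29 (Actn4). Srf, whose product binds CArG boxes, had 24.4 FPKM in WT and 23.4 FPKM in Tet2 KO, and Myod1 had 336 and 313 FPKM. Cfl1, the cofilin of non-muscle cells and the highest of the list in WT, had 736 and 776 FPKM.

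Markers of differentiated muscle were lower in Tet2 KO as well. Of 16 such markers, 13 were lower in Tet2 KO by at least 2-fold and 0 higher, beside 1.21% and 2.08% of all genes, with a median ratio of -1.27 and a summed level of 3430 FPKM in WT and 1390 FPKM in Tet2 KO. Their ratios ran from -1.92 for Tnnc2, a fast troponin, to -0.92 for Actc1, an alpha-actin. Of 8 myoblast markers, 0 were past 2-fold in either direction and the median ratio was -0.10, from -0.27 for Des, which encodes desmin, to 0.28 for Vcam1, an adhesion molecule. Their sums were 1432 FPKM in WT and 1298 FPKM in Tet2 KO, and Myod1, Myf5 and Pax7 were all present, so the cells carried the markers of their label in both groups, beside transcripts of differentiated muscle. In bulk RNA, fewer cells that express a gene and less of its RNA per cell cannot be told apart.

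Markers of leukocytes, which the sort was meant to remove, had higher values in Tet2 KO. All 12 ratios were above 0, 10 of them at or past 2-fold (12 without the added 1 FPKM), beside 2.08% of all genes, with a median ratio of 1.59 and a summed level of 121 FPKM in WT and 478 FPKM in Tet2 KO. Their ratios ran from 0.94 for Cd68 to 2.07 for Lyz2, which encodes the lysozyme of macrophages and had 59.5 and 253 FPKM. Of the genes of the gate, Ptprc, which encodes CD45, had 1.36 FPKM in WT and 5.67 FPKM in Tet2 KO, a ratio of 1.5. Itgam, which encodes CD11b, had 2.09 and 10.1 FPKM, a ratio of 1.84. The part of these cells in the levels of the LIM genes was not tested. Fibroblast markers, 8 of 9 with a mean FPKM of at least 1, had a median ratio of 0.25, from -0.50 for Postn to 0.95 for Dcn, none past 2-fold on the log2(FPKM + 1) scale; without the added 1 FPKM, Dcn alone was. Ly6a, which encodes Sca1, had 278 FPKM in WT and 288 FPKM in Tet2 KO although the sort took cells without that protein before culture. Smooth muscle markers are of interest beside Csrp1 and Csrp2. Of 8, 4 had a mean FPKM of at least 1, with ratios from -0.69 for Acta2 to 0.14 for Tagln and a median of -0.59, and the defining genes Myh11 and Cnn1 stood at 0.155 and 0.117 FPKM in WT and at 0.114 and 0.110 FPKM in Tet2 KO. Of 6 endothelial markers, Pecam1 alone had a mean FPKM of at least 1, with a ratio of -0.08.

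The targeted gene did not serve as a check of the groups. Tet2 had 6.64 FPKM in WT and 5.79 FPKM in Tet2 KO, a ratio of -0.17, and a value for the whole gene does not isolate the deleted exon 3.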

How the data were processed

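RNA of WT and Tet2 KO primary myoblasts, 2 libraries each, was sequenced (TruSeq RNA kit). As the study's methods and the submitters' processing notes state, the authors trimmed the reads, aligned read pairs to mm9 with TopHat2 2.0.13 and estimated expression with Cuffdiff 2.2.1. The gene annotation is not given in the sources used here. The deposited table held 1 FPKM value per gene and group, normalised by the authors. How the libraries were combined is not stated. The study's methods mention comparisons of pairs of KO and WT samples, so a value may stand for 1 library and not for both. No column named for a library was used here. The table also held the authors' own fold change, test statistic, p-value, q-value and call for each gene, which were not used.

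The symbols of the 10 genes were matched exactly, and log2((Tet2 KO FPKM + 1) / (WT FPKM + 1)) was computed for genes whose mean FPKM reached 1. The added 1 FPKM understates the difference of low genes. No test was run, because each group had 1 value. The 10 genes and all lists (LIM family, LIM partners and markers of 6 cell types) were chosen with earlier results of these data known. Named were the 10 genes, Tet2, the genes of the LIM family and partner lists past 2-fold and their member of highest level in WT, the 3 genes nearest to Csrp3 and to Limch1, and the genes of highest and lowest ratio of each marker list. Actn1, Actn4, Srf, Myod1, Myf5, Pax7, Ptprc, Itgam, Ly6a, Myh11 and Cnn1 were added after their values were seen. In the leukocyte list, Emr1 and Sfpi1 were found as Adgre1 and Spi1.

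Gene coordinates follow the expression table (mm9), whose starts, counted from 0, were raised by 1. Strand, exons and coding sequences came from GENCODE vM1 of the same build, promoter windows from RefSeq (GRCm38.p6). Csrp2 was not found among these windows. Windows on chromosome 18, where Ablim3 lies, were left out, so nothing is said here about the promoter of Ablim3. Every window of the 8 other genes matched mm9 exactly once, by which its place relative to the expression table was set. Copies were searched with BLAST+ 2.17.0 at 95% identity. Python 3.11.15, numpy 2.4.6, pandas 2.3.3, biopython 1.88 and matplotlib 3.10.9 were used. Other pseudocounts, scalings, filters and fold limits were tried, for the marker lists chosen after the data were seen.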

Additional observations from a re-analysis of the deposited data

How the results depend on the processing

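The ratios of the 10 genes kept their side of 0 and of the 2-fold limit in all 40 combinations of gene and setting tried (a pseudocount of 0.1, none, rescaling to TPM and centring on the median of all genes). The largest shift was that of Limch1, to -2.39 without a pseudocount. Ratios near 0, such as that of Fhl3, have no direction worth reading. The counts of lower and higher genes among the 10 genes, the other LIM genes and the LIM partners were the same under these settings and without a filter. Of the marker lists, recounted as a choice made after seeing the data, differentiated muscle had 14 lower genes instead of 13 and leukocytes 12 higher instead of 10 with a pseudocount of 0.1 or none. Under these settings 1 smooth muscle marker (Synpo2) was lower and 1 fibroblast marker (Dcn) higher instead of 0. With TPM there were 11 higher leukocyte markers and 1 higher fibroblast marker, and with a mean FPKM of at least 5 there were 7 higher leukocyte markers. With a mean FPKM of at least 5, 4 of the 10 genes were counted as lower instead of 5, since Ablim3 fell under the filter, and the count of other LIM genes that were higher went from 2 to 0. At a 4-fold limit, 1 of the 10 genes was lower, Limch1, and the counts of other LIM genes that were lower and higher and of LIM partners that were lower were each 0. Csrp3 was 4.12-fold lower without the added 1 FPKM, but its ratio of -1.98 did not reach that limit. At a 1.5-fold limit, 5 LIM partners were lower instead of 3. The median ratio of the 10 genes, -0.82, ran from -1.11 to -0.52 when each gene was left out in turn, and was -1.11 without Csrp1, Csrp2, Fhl2, Fhl3 or Ablim1. With 1 added to each level, the share of Csrp3 in its family differed by -26.8 percentage points instead of -27.4 and that of Fhl1 by -21.4 instead of -22.3. No paired analysis was possible because the table held 1 value per group, and for the same reason no library could be left out. The spread between libraries and the depth behind each value are therefore unknown.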
